A study of Camellia reticulata with 27 samples.

Results

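In petals of Camellia reticulata, 200 transcripts stood out by a high level in the white cultivar Tongzimian (TZM) at the bud stage and at full bloom, over every group of the red cultivar Shizitou (SZT) and the mixed-color cultivar Manao (MN, Damanao in the study's text). They were chosen from 225938 assembled transcripts by a score on FPKM (mapped fragments scaled by transcript length and by library size). The score was the lower log2(mean FPKM + 1) of both TZM groups minus the highest such value among the 7 SZT and MN groups. The 86 transcripts that the study names as enzymes, transcription factors or other functions were removed first, and a mean of at least 5 FPKM in at least 1 group was required, which left 55013 transcripts with a score. The 200 highest scores are described here and are called members. Because this score used the levels in TZM, SZT and MN, the gap between TZM and the other cultivars is given as a description with no test.

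The 27 libraries formed 9 groups of 3. Petals of TZM and of SZT were taken at the bud stage and at full bloom. MN, which the study describes as a bud variant of SZT, was taken at bud stage 1, bud stage 3, initial flowering, and at full bloom in its white and its red petal regions. Neither the labels nor the methods tie a library to a particular plant, so p-values measure only the spread between these libraries, which may be technical. The labelled tissue is flowers, and the table pairs no member with a gene name or a function, so the members are named by transcript number.

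Red color in Camellia petals comes from anthocyanins, which are made from flavonoid precursors by a chain of enzymes that begins with chalcone synthase (CHS) and runs through F3H (flavanone 3-hydroxylase), DFR (dihydroflavonol reductase) and ANS (anthocyanidin synthase). White petals hold little of these end pigments. A de novo assembly builds transcripts from the reads without a genome, so copies of a gene that differ in sequence, such as alleles of different cultivars, can be assembled as separate transcripts. In a transcript's name the digits ahead of the point are a cluster number. What it stands for in this assembly is not known here.

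FPKM summed to between 1117467 and 1320744 per library, between 126900 and 148030 transcripts per library lay above 0, and read totals per library were not used here, so that the depth behind a single value is unknown. A value of 0 in this table may also be a failed estimate. A pair of libraries stood apart in ways that touch the members. In replicate 1 of TZM at full bloom, 35 members (17.5%) lay at least 2 log2 units above both other full-bloom libraries of TZM, against 3.05% of all 19935 scored transcripts at or above the lowest member mean of that group. In the 5 other TZM libraries this held for 0 to 5 members. Across the 200 members, Pearson's r of this library with replicates 2 and 3 was 0.36 in both cases. It was 0.77 between replicates 2 and 3, and 0.48 to 0.55 between this library and the bud libraries. Over the 55099 transcripts with a group mean of at least 5 FPKM, the order was different. There r of this library was 0.84 and 0.83 with replicates 2 and 3, and 0.66 to 0.69 with the bud libraries. Members were chosen on group means, so that 1 high library can bring a transcript into the list.

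Replicate 1 of MN at bud stage 1 stood apart among the SZT and MN libraries. Over the whole table, 262 transcripts had a mean of at least 5 FPKM over the 6 TZM libraries and lay above 0 in exactly 1 of the 21 SZT and MN libraries. That library was replicate 1 of MN at bud stage 1 for 92 of them, and the next highest count was 22, for replicate 1 of SZT at the bud stage. When this MN library was left out of the score, 33 other transcripts entered the 200. In it they ranged from 1.54 to 968 FPKM with a median of 16.4, and the median of their highest value in the 20 other SZT and MN libraries was 0.10 FPKM. Cluster-84501.22 was one of them. It held between 562 and 1181 FPKM in TZM, 968 FPKM in this MN library and between 8.70 and 27.6 FPKM in the 20 others. Cluster-84501.24 ran the other way under the same number, at no more than 2.12 FPKM in TZM, 276 FPKM in this MN library and between 444 and 737 FPKM in the 20 others. Where this signal came from was not tested.

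**Figure D1:**
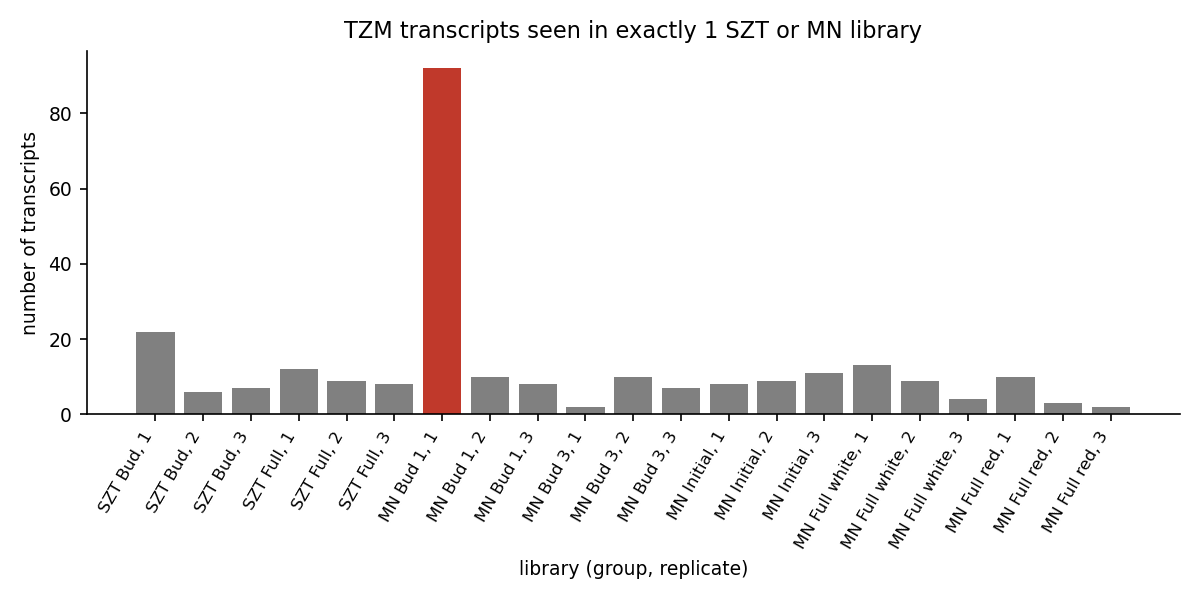
Number of transcripts with a mean of at least 5 FPKM over the TZM libraries that lay above 0 in exactly 1 SZT or MN library, by that library. Each bar is 1 library. Replicate 1 of MN at bud stage 1 held 92 of the 262 transcripts, and the next highest bar stands at 22.

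The members were near absent outside TZM. In all, 120 of the 200 (60%) were listed at 0 in all 21 SZT and MN libraries, against 1.43% of the scored transcripts. In TZM, 164 members lay above 0 in all 6 libraries, and 36 were listed at 0 in at least 1. For 162 members every TZM library lay above every SZT and MN library, and for 38 the libraries overlapped. The former held for 2.43% of the scored transcripts, and the score chose members for it. Summed over the members, FPKM ranged from 12969 to 15563 in the TZM bud libraries, from 9259 to 14756 in the TZM full-bloom libraries and from 29.7 to 163 in the SZT and MN libraries. The highest of the latter was replicate 1 of MN at bud stage 1. These sums were 1.15% to 1.36%, 0.701% to 1.29% and 0.00238% to 0.0132% of the libraries' FPKM.

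**Figure D2:**
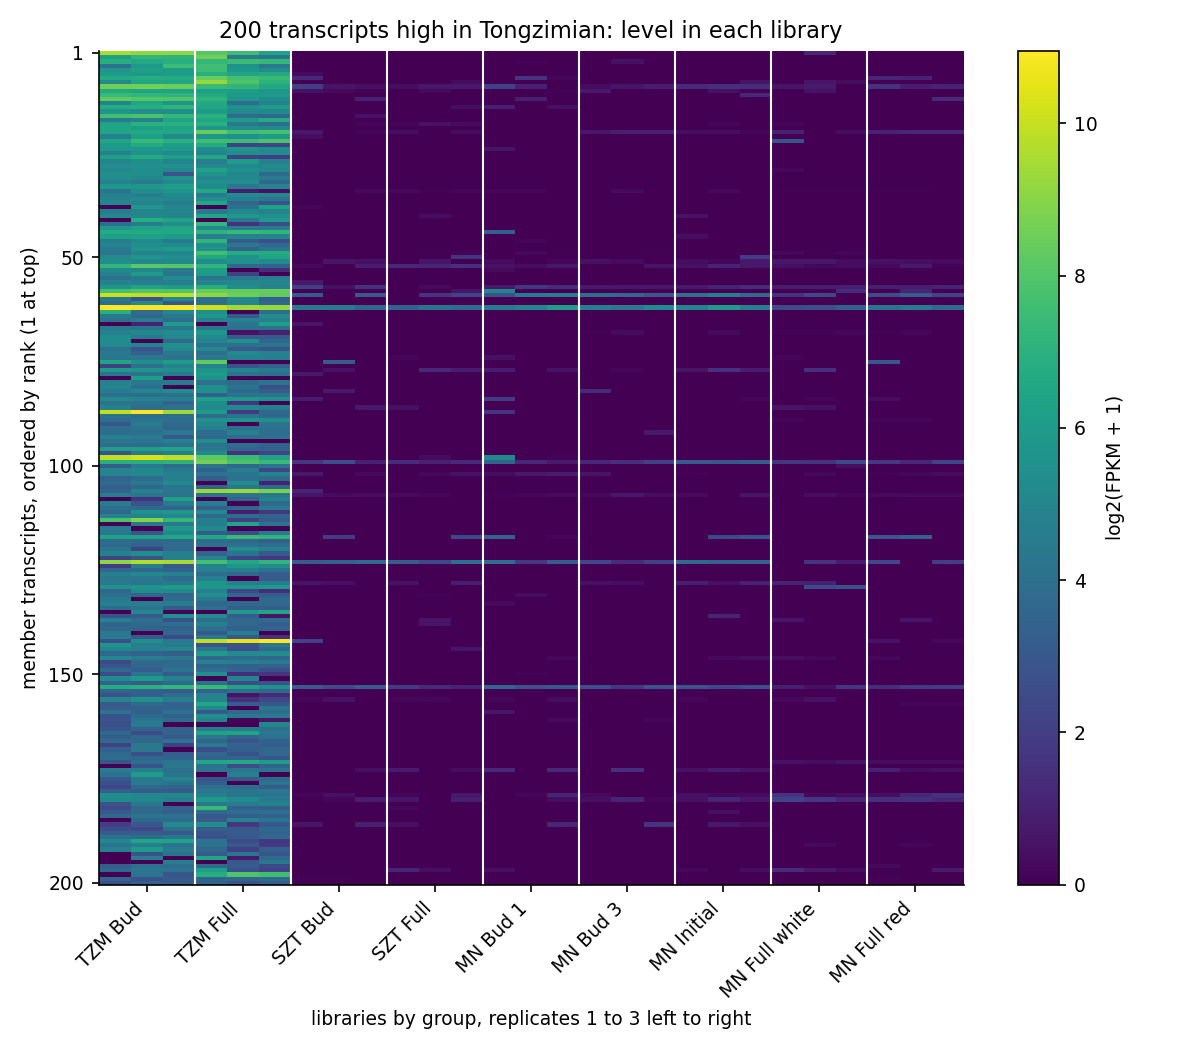
Level of the 200 members, in rows from rank 1 at the top, in the 27 libraries, in columns by group with replicates 1 to 3 from left to right. Color gives log2(FPKM + 1). The members are bright in the 6 TZM libraries apart from single dark cells, and dark in the 21 others apart from a few rows such as Cluster-58706.1 at rank 62.

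Group means of the members ranged from 7.73 to 1933 FPKM at the TZM bud stage (median 22.6) and from 7.84 to 1496 FPKM at TZM full bloom (median 21.8), with 22 members at or above 100 FPKM at each stage. A few transcripts carried much of the sum, since the 5 most abundant members held 31.9% of it. The most abundant was Cluster-58706.1, at 1984, 1888 and 1928 FPKM in the TZM bud libraries and 1104, 675 and 604 FPKM at full bloom. It was also the member with the highest level outside TZM, up to 67.7 FPKM in replicate 3 of MN at bud stage 1, so it was lower but not absent there. In all, 20 members reached a mean of 1 FPKM in an SZT or MN group, and 8 reached 5 FPKM.

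Members varied widely between replicates. The median coefficient of variation was 27.7% at the TZM bud stage against 15.6% over 20910 scored transcripts at or above the lowest member mean, a set that includes the members and has no upper limit. At TZM full bloom it was 46.1% against 22.6%, where replicate 1 stood apart as above. In 47 members it exceeded 100% at full bloom, as it did in 21 at the bud stage.

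The highest score, 6.99, belonged to Cluster-2669.0. It held 762, 583 and 557 FPKM in the TZM bud libraries, 267, 191 and 83.0 FPKM at TZM full bloom, and no more than 1.29 FPKM in any SZT or MN library. Cluster-1135.0 was second with 76.9, 145 and 133 FPKM at the bud stage and 377, 22.6 and 17.9 FPKM at full bloom, and was listed at 0 in all 21 other libraries. Its full-bloom mean thus rested mainly on replicate 1. Cluster-74852.1 was even across both stages, with 97.6 to 119 FPKM at the bud stage and 154 to 184 FPKM at full bloom, and at most 0.41 FPKM elsewhere. Cluster-1213.129 was uneven within both stages, at 16, 57.4 and 186 FPKM and then 193, 47.9 and 19.9 FPKM. Cluster-8143.4 held 51.9 to 75 FPKM at the bud stage and 40.0 to 181 FPKM at full bloom. Both were listed at 0 in all SZT and MN libraries.

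The next 5 by score were Cluster-53480.3, Cluster-94825.11, Cluster-1166.0, Cluster-2669.16 and Cluster-15304.2, and each of them lay above 30 FPKM in all 6 TZM libraries. Cluster-53480.3 held 61.4 to 66.3 FPKM at the bud stage and 87.6 to 114 FPKM at full bloom. Cluster-1166.0 ran from 36.3 to 92.4 FPKM at the bud stage to 133 to 603 FPKM at full bloom. Cluster-15304.2 ran from 81.1 to 101 FPKM to 52.2 to 71.3 FPKM. The highest value of these 5 in an SZT or MN library was 3.30 FPKM, for Cluster-2669.16.

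The threshold fell in a dense part of the ranking. The last 3 members, Cluster-25344.2, Cluster-66411.1 and Cluster-1739.8, scored 3.13, 3.13 and 3.13, and the 3 transcripts just outside, Cluster-77440.1, Cluster-840.0 and Cluster-1461.0, scored 3.12, 3.12 and 3.12. Cluster-1739.8 held means of 7.73 and 8.34 FPKM at the TZM stages, and Cluster-77440.1 held 8.01 and 15.4 FPKM with up to 0.033 FPKM in an SZT group. Members and the transcripts after them are thus much alike, and 4457 scores lay above 0.

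To read the score in libraries that did not choose it, the filter and the score were computed without the libraries of 1 replicate number, the 200 highest were taken, and their score was read in the libraries left out, 1 per group. The held-out score was above 0 for 165, 176 and 170 of the 200 with replicate 1, 2 and 3 held out. Over the 55013 transcripts filtered on all libraries it was above 0 for 6.27%, 6.79% and 6.92%. These transcripts were not chosen for low levels in SZT and MN, and the 200 were, so nothing is read from this gap. The lists of 200 were not the members themselves and shared 141, 173 and 169 transcripts with them. The median held-out score was 3.05, 3.33 and 3.26, against 3.78, 3.87 and 3.84 in the choosing libraries. Of the 200, 24, 21 and 28 were listed at 0 in a held-out TZM library. The libraries left out belong to the same groups, so these values read only the spread between libraries. The lowest count and median belonged to the set with both libraries that stood apart, the first replicates of TZM at full bloom and of MN at bud stage 1.

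The members fell under 169 cluster numbers. Under 19 of these lay several members, 50 in all, and transcripts under one number may share reads. Cluster-50005 held 5 members, the most. They were close to even across the stages, such as Cluster-50005.34 at 25.5, 24.6 and 35.6 FPKM in the bud libraries and 22.2, 38.5 and 32.2 FPKM at full bloom. None of its 5 members was called between the stages, and their highest SZT or MN value was 0.70 FPKM.

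Cluster-74 and Cluster-94825 held 4 members each. All 4 members of Cluster-74 were listed at 0 in replicate 1 of both TZM groups. In the bud libraries Cluster-74.37 held 0, 108 and 82.1 FPKM, and at full bloom 0, 19.7 and 60.4 FPKM. Cluster-74.35 held 0, 1.1 and 63.4 FPKM and then 0, 18.5 and 71.7 FPKM. These transcripts were thus missing from some TZM libraries of each stage and high in others. The members of Cluster-94825 had no such gap. Cluster-94825.11 held 102, 109 and 105 FPKM at the bud stage and 339, 209 and 169 FPKM at full bloom, and Cluster-94825.3 held 88.3, 99.97 and 93.7 FPKM and then 341, 194 and 216 FPKM. All 4 members of Cluster-94825 had every full-bloom library above every bud library.

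Between the stages of TZM, which the score used only through the lower of both means, 34 members changed and 166 did not pass the test. Of the 34, 15 were higher and 19 lower at full bloom. The test was limma on log2(FPKM + 1) with all 27 libraries and 1 mean per group. The 9 groups share a single spread per transcript. Most members varied little in the 21 SZT and MN libraries, where 120 of them were listed at 0 throughout. The SE and p-values of members between TZM stages can therefore be too small. A feature was called past a log2 difference of 1 in size and an adjusted p, after Benjamini and Hochberg over all features, of 0.001 or less. Of the members 17.0% were called, and of all 55099 tested transcripts 17.9%, with 7.06% of the tested higher and 10.8% lower. The median difference was -0.16 log2 units over the members and -0.09 over all tested transcripts. Because the score asked for a high level at both stages, it bears on how far a member can differ between them, and nothing is read from the share called. With median-ratio scaling, which moved the median of all transcripts from -0.09 to 0, the split turned to 18 higher and 12 lower. Without replicate 1 of TZM at full bloom, 59 members were called, 13 higher and 46 lower. With the 6 TZM libraries alone in the fit 0 were called (65 had an unadjusted p under 0.05 and 40 an adjusted p under 0.05), and with a pseudocount of 0.01 only 3 were.

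**Figure D3:**
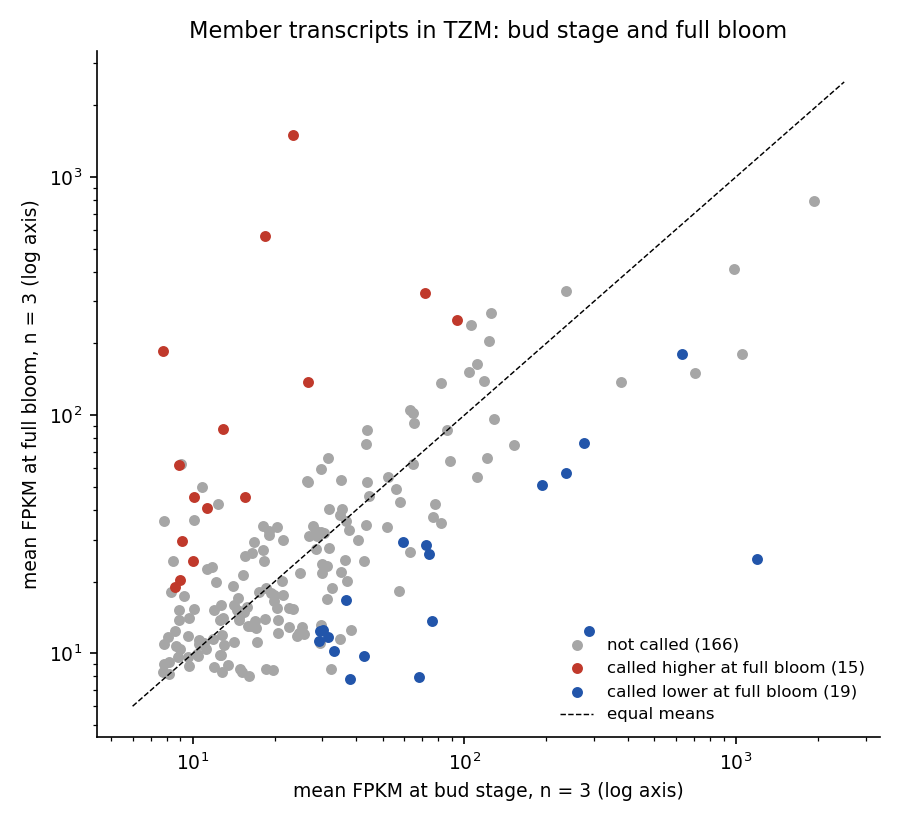
Mean FPKM of the 200 members at the TZM bud stage and at TZM full bloom, 3 libraries each, both axes on a log scale. Each point is a member. The 15 called higher at full bloom lie above the dashed line of equal means and the 19 called lower lie below it, with 166 members not called.

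Among the members that rose, Cluster-6248.28 had the largest difference. It held 5.42, 43.1 and 21.6 FPKM in the bud libraries and 965, 1542 and 1981 FPKM at full bloom, and no bud library came near a full-bloom one. The difference was 6.27 ± 0.52 log2 units (SE, n = 3 per group, adjusted p = 6.53e-09, limma). Cluster-83091.3 held 10.1, 26.7 and 18.7 FPKM and then 633, 631 and 424 FPKM, a difference of 4.92 ± 0.29. Cluster-25344.2 held 0, 16.8 and 6.5 FPKM and then 112, 248 and 195 FPKM, a difference of 5.11 ± 0.59. All 3 went from a low level at the bud stage to a high one at full bloom without overlap. Cluster-20200.2 was next, at 6.31, 13.9 and 18.4 FPKM and then 91.5, 103 and 67.0 FPKM (2.76 ± 0.26). Cluster-101654.10 held 11.5, 4.62 and 10.6 FPKM and then 80.8, 85.4 and 19.1 FPKM (2.48 ± 0.38).

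Among the members that fell, Cluster-20003.15 had the largest difference. It held 993, 1919 and 665 FPKM in the bud libraries and 60.8, 2.64 and 11.5 FPKM at full bloom, a difference of -6.26 ± 0.62 log2 units (adjusted p = 7.82e-08, limma). Cluster-20003.3, under the same number, held 220, 484 and 156 FPKM and then 25.9, 3.21 and 8.25 FPKM (-4.66 ± 0.43). A further member of that number, Cluster-20003.19, also fell, by 1.69 log2 units. These 3 transcripts share a cluster number and may share reads, so that they are not separate evidence.

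Cluster-13730.3 fell from 33.2, 89.3 and 81.6 FPKM to 16.8, 4.68 and 2.42 FPKM (-3.18 ± 0.40). Cluster-92257.1 held 152, 281 and 273 FPKM and then 149, 11.2 and 10.6 FPKM (-3.04 ± 0.60), with replicate 1 at full bloom just under the lowest bud library. Cluster-1406.0 held 39.0, 61.9 and 27.4 FPKM and then 0, 29.3 and 0 FPKM, and it was the only called member whose stages overlapped. In all, 33 of the 34 called members had stages that did not overlap, as did 70 of all 200, against 46.4% of all tested transcripts. The adjusted p of Cluster-1406.0 passed 0.001 when any TZM bud library, or replicate 1 or 3 at full bloom, was left out, and that of Cluster-92257.1 did so without bud replicate 2 or 3 or without full-bloom replicate 2 or 3.

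Within SZT and MN, where the members were near 0, none was called. Between bud stage and full bloom of SZT, 0 of 200 members were called, against 26.8% of all transcripts, and 2 had an unadjusted p under 0.05. Between bud stage 3 and initial flowering of MN it was 0 against 16.4%, with 4 at an unadjusted p under 0.05. Between the red and white regions of MN at full bloom it was 0 against 0.0363%, with 5, and between the red region of MN and SZT at full bloom it was 0 against 2.80%, with 5. Members were chosen for low levels in SZT and MN and passed the filter through TZM, and between 146 and 160 of them had a difference of exactly 0 in each of these comparisons, so nothing is read from these counts. At an adjusted p under 0.05 there were 2 calls between SZT stages, 2 between MN stages and 1 between the MN red region and SZT, and without replicate 1 of the white region there was 1 between MN regions.

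Transcripts that ran opposite to a member lay under the same cluster number in a number of cases. A list of the 200 transcripts lowest in TZM at both stages, made by the mirror image of the score, covered 172 cluster numbers. Of these, 14 also held a member, which is 8.28% of the members' cluster numbers and 8.14% of the low list's. Among the 26061 cluster numbers with a scored transcript, 0.660% held a transcript of the low list. Both lists were chosen on the same levels, so this is a description with no test. A number with more transcripts is more likely to hold one of either list, and numbers with a member held up to 1376. The shares were not matched for size.

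In Cluster-75054, the member Cluster-75054.0 held 11.1, 9.70 and 7.97 FPKM at the TZM bud stage and 9.14, 14.5 and 11.9 FPKM at TZM full bloom, and was listed at 0 in all SZT and MN libraries. Its partner Cluster-75054.1 was listed at 0 in all 6 TZM libraries and held 13.1 to 103 FPKM in the 21 others. Each of the 27 libraries thus held one of the pair and not the other. Cluster-66314.1 held 308, 265 and 253 FPKM and then 140, 51.0 and 39.6 FPKM in TZM and at most 1.53 FPKM elsewhere. Its partner Cluster-66314.0 held at most 5.54 FPKM in TZM and between 47.1 and 466 FPKM elsewhere. Other pairs were Cluster-15752.21 (means of 21.2 and 20.1 FPKM in TZM) with Cluster-15752.9 (12.6 to 22.7 FPKM in the SZT and MN groups, 0 in TZM) and Cluster-53480.3 with Cluster-53480.2 (26.1 to 56.7 FPKM, at most 0.04 in TZM). For the member of highest score, Cluster-2669.0, the partner was Cluster-2669.23, with group means of 37.5 to 269 FPKM in SZT and MN and 0 in TZM. For Cluster-89808.7, a member of lower rank, it was Cluster-89808.12, with 228 to 1030 FPKM in SZT and MN and at most 0.47 FPKM in TZM.

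**Figure D4:**
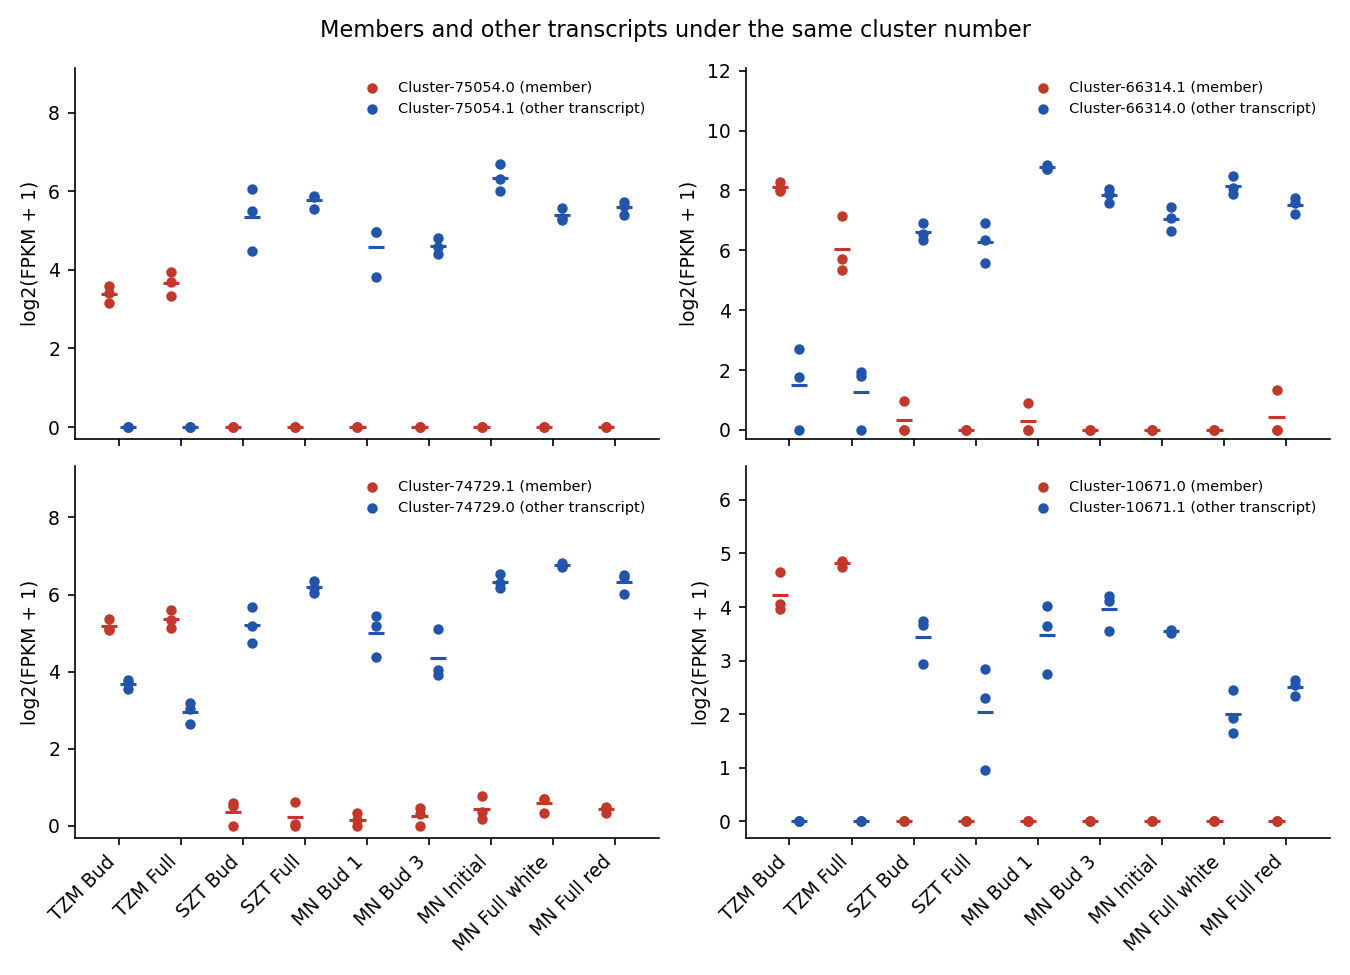
Members (red) and the most abundant other transcript of their cluster number (blue) in the 9 groups, as log2(FPKM + 1), for Cluster-75054, Cluster-66314, Cluster-74729 and Cluster-10671. Points are libraries, 3 per group, and bars are means on this scale. The member is high in TZM and near 0 in SZT and MN. The other transcript is high in SZT and MN and lower in TZM, where Cluster-75054.1 and Cluster-10671.1 are listed at 0.

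To test the transcripts around the members and not the members themselves, the FPKM of all other transcripts under a member's cluster number were summed in each library and added to the fit. Such a sum existed for 116 of the 169 cluster numbers, and 109 passed the filter. A partner high enough in TZM would itself be a member and is left out of these sums, which limits how far they can rise. Leaving out the members also takes FPKM from TZM and little from SZT and MN. A lower sum in TZM can therefore follow from the choice of members, and does not mean less FPKM under that number. At the bud stage, 26 sums (23.9%) differed between TZM and SZT, 12 higher and 14 lower in TZM. Among the sums of cluster numbers without a member 13.7% were called, 4.97% higher and 8.74% lower. At full bloom it was 22 sums (20.2%), 12 higher and 10 lower in TZM, against 16.9% (8.53% higher and 8.37% lower). Between TZM at full bloom and the white region of MN it was 20 sums (18.3%), 12 higher and 8 lower, against 12.7% (7.04% higher and 5.63% lower). Of single transcripts, 15%, 18.3% and 13.2% were called in these comparisons. The change from bud to full bloom differed between TZM and SZT in 22 sums, against 16.9% of the sums without a member and 13% of transcripts. Among cluster numbers of only 2 to 4 transcripts, a set chosen after seeing the data, 9, 8, 8 and 6 of 21 sums were called in these 4 comparisons, against 13.7%, 17%, 12.4% and 14.8%. In all, 6 sums were lower in TZM than in SZT at both stages, 2 were higher at both, and 0 were called in opposite directions. Of the sums without a member, 1.4% were lower at both stages and 0.991% higher. With only the libraries compared in the fit, the 4 counts over all sizes were 1, 2, 3 and 1. The shares of sums without a member come from a separate fit on cluster sums alone, and no transcript was taken out of those numbers. In that fit, 28, 22, 20 and 22 of the 109 sums around members were called in the 4 comparisons. Cluster numbers with a member differ from others in how many transcripts they hold, and the difference from the background was not tested.

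**Figure D5:**
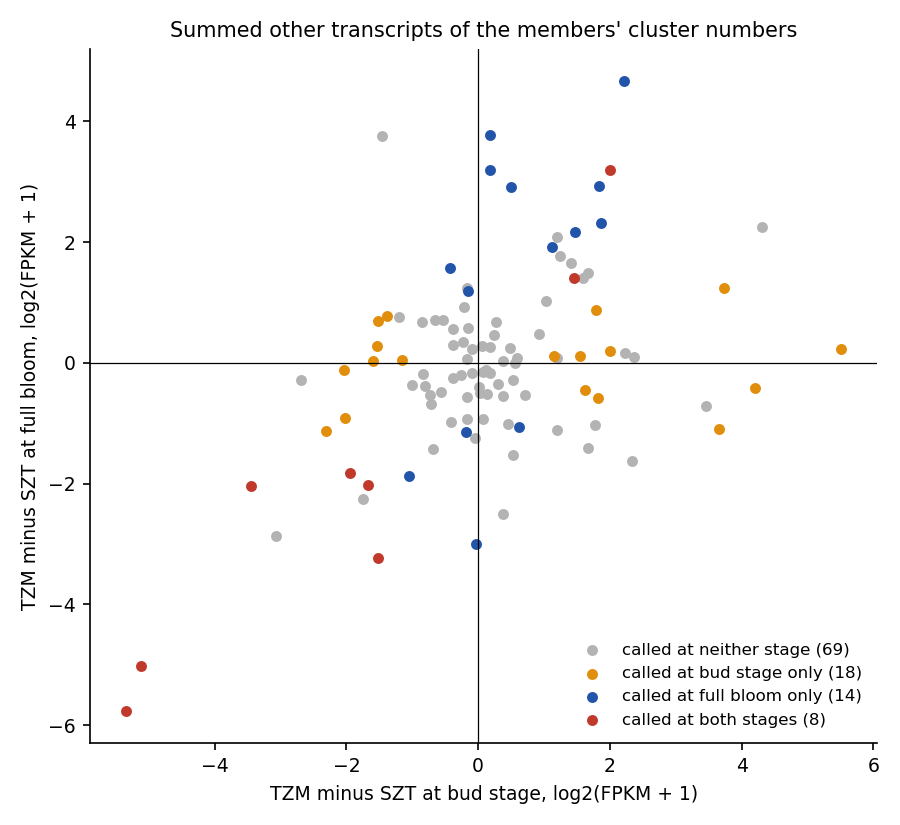
Difference between TZM and SZT, on log2(FPKM + 1), in the summed other transcripts of 109 member cluster numbers, at the bud stage (x) and at full bloom (y). Each point is a cluster number, colored by the stages at which it was called. The 8 called at both stages lie in the lower left (6) and the upper right (2).

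The 6 sums that fell below SZT at both stages were those of Cluster-75054, Cluster-66314, Cluster-74729, Cluster-10671, Cluster-91783 and Cluster-101654. The members left out of them carried 25.5% of the TZM FPKM under Cluster-101654 and 76.6% or more under the others. For Cluster-66314 the difference was -5.11 ± 0.51 log2 units at the bud stage and -5.03 ± 0.51 at full bloom (SE, n = 3 per group, adjusted p = 1.24e-07 at full bloom, limma). In Cluster-74729 the sum was Cluster-74729.0 alone, with 12.9, 10.8 and 12.1 FPKM in TZM buds against 26.0, 50 and 35.5 FPKM in SZT buds, and 8.16, 7.16 and 5.23 FPKM against 65.3, 70.7 and 81.1 FPKM at full bloom. The differences were -1.51 ± 0.29 and -3.24 ± 0.29. Its member Cluster-74729.1 held 32.8 to 47.4 FPKM in TZM, so that TZM carried both transcripts and SZT mainly one. Cluster-10671.1 was listed at 0 in all TZM libraries and held 0.95 to 12.3 FPKM in SZT, beside its member Cluster-10671.0 at 14.7 to 27.9 FPKM in TZM and 0 elsewhere. At full bloom its call was lost without SZT replicate 2 or 3 (adjusted p = 0.0013 and 0.0017).

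Cluster-64356 differed from SZT at full bloom and not by the test at the bud stage. The sum was near 0 in TZM and in SZT buds and held 3.22, 19.0 and 4.98 FPKM in SZT at full bloom, while it was listed at 0 in all TZM full-bloom libraries. Its member Cluster-64356.1 rose in TZM from 18.8, 28.9 and 31.9 FPKM to 197, 110 and 107 FPKM. Both cultivars thus had more FPKM under this number at full bloom, in different transcripts.

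Of the sums that were higher in TZM at full bloom, Cluster-25344 had the largest difference, 4.67 ± 0.59 log2 units over SZT, from 68.4, 95.2 and 110 FPKM against 4.86, 6.66 and 0 FPKM. Its member Cluster-25344.2 rose at the same stage, and so did the member of Cluster-20200, whose sum was 661, 507 and 498 FPKM in TZM against 89.9, 37.5 and 62.9 FPKM in SZT (3.18 ± 0.42). The sum of Cluster-20200 was as high in MN at full bloom, at 446 to 495 FPKM in the white region and 437 to 518 FPKM in the red region. The white region did not pass the test against TZM (0.24 ± 0.42, adjusted p = 0.72), and the red region was not tested. Cluster-20200.2 itself reached at most 0.55 FPKM in either. Cluster-106460 (3.77 ± 0.40), Cluster-1753 (3.19 ± 0.44) and Cluster-60779 (2.92 ± 0.50) were the others. In Cluster-1753 the partners differed by cultivar as well, since Cluster-1753.0 held 2.87 to 13.4 FPKM in TZM and 0 elsewhere, and Cluster-1753.1 was listed at 0 in TZM and held 2.62 to 8.29 FPKM in SZT buds.

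Members were often a modest share of what lay under their cluster number. Over the 118 member cluster numbers that hold more than 1 transcript, Cluster-24184 and Cluster-58706 among them with members alone, members carried a median of 29.5% of the FPKM in TZM, and in 39 they carried 50% or more. Another 51 members (25.5%) were alone under their number, against 24.0% of the scored transcripts.

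One member shared a cluster number with transcripts named in the study, and all 3 of these were named ANS, the enzyme that forms the colored anthocyanidins. Cluster-21086.2 held 17.1, 24.99 and 17.0 FPKM in TZM buds, 16.1, 6.82 and 2.67 FPKM at TZM full bloom and at most 0.22 FPKM in SZT and MN. The most abundant named ANS, Cluster-21086.8, was far higher in buds, at 2225, 1804 and 1909 FPKM in TZM and 1874, 2285 and 570 FPKM in SZT. At the bud stage Cluster-21086.8 did not differ between TZM and SZT by the test (0.55 ± 0.45 log2 units, adjusted p = 0.38). At full bloom it held 3.34, 3.18 and 2.17 FPKM in TZM and 15.7, 26.4 and 33.2 FPKM in SZT, and was lower in TZM by the test (-2.69 ± 0.45, adjusted p = 6.0e-05). The other named transcripts were low. Cluster-21086.3 held 1.21, 0 and 0 FPKM in TZM buds and 4.88, 19.4 and 1.3 FPKM in SZT buds, lower in TZM by the test (-2.32 ± 0.49, adjusted p = 0.00071), and it did not pass the test at full bloom. Cluster-21086.7 did not pass it at either stage. The member thus added little to the FPKM of this number at the bud stage, and at TZM full bloom its 3 values lay between 2.67 and 16.1 FPKM beside 2.17 to 3.34 FPKM of Cluster-21086.8.

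No named enzyme transcript of the pathway was called higher in TZM, the direction that defined the members, at either stage. With an adjusted p above 0.001 but under 0.05, 1 ANR transcript had the higher level in TZM at full bloom, Cluster-15097.15 (3.32 ± 0.89 log2 units, adjusted p = 0.0048), and 1 F3H transcript at the bud stage, Cluster-88339.4 (1.13 ± 0.30, adjusted p = 0.0046). Of the 20 named CHS, F3H, DFR, ANS and anthocyanidin reductase (ANR) transcripts, 0 were higher and 2 lower in TZM than in SZT at the bud stage, and 0 were higher and 6 lower at full bloom. Of the 46 named transcription factor transcripts, 0 were higher and 10 lower at the bud stage, and 0 were higher and 5 lower at full bloom. Of the 20 named transcripts of other functions, 5 were higher and 2 lower at the bud stage, and 0 were higher and 5 lower at full bloom. The 5 called higher at the bud stage all lie under Cluster-100695, carry one label (production of miRNAs) and may share reads, so that they are not separate evidence. The backgrounds were 15% of all transcripts at the bud stage and 18.3% at full bloom. The study chose this list on these libraries, so its direction is not independent evidence. With only the libraries compared in the fit 0 of the 86 were called at either stage (36 and 35 had an unadjusted p under 0.05), and a single library left out lowered the count from 19 to as few as 8 at the bud stage and from 16 to as few as 7 at full bloom. Summed over its 6 transcripts, CHS, the first enzyme of the chain, held 5430 to 7139 FPKM in TZM buds and 3906 to 9482 FPKM in SZT buds, which overlapped, and 27.9 to 53.6 FPKM against 198 to 263 FPKM at full bloom, which did not. The DFR sum held 6.90 to 13.7 FPKM in TZM and 45.8 to 48.8 FPKM in SZT at full bloom, and the F3H sum 28.1 to 37.9 FPKM and 72.1 to 97.0 FPKM. The ANR sum, an enzyme that leads away from anthocyanins, had the higher mean in TZM at full bloom, with 7.96, 69.5 and 56.2 FPKM against 15.5, 3.78 and 0 FPKM in SZT, and these libraries overlapped.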

How the data were processed

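RNA of petals was sequenced in 27 libraries of 9 groups by cultivar, stage and petal region, with groups and replicate numbers taken from the sample titles. The authors trimmed reads with Trimmomatic 0.36 (per the submitters' processing notes), assembled transcripts with Trinity, mapped the reads to them, and deposited FPKM with 2 decimals and no expression filter. Which mapper and expression program were used, and how many reads each library had, is not given in the sources used. Depth per library is therefore unknown and no interval for counting error is given. DEGseq, named in the methods of the study, takes counts and was left aside.

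Members were chosen on group means of FPKM as stated above. Their differences between TZM and the other cultivars chose them and were not tested. The members, lists and named transcripts were chosen with earlier results of these data known. Transcripts named are the 10 highest scores, 3 on either side of the threshold, the 5 largest called rises and falls between TZM stages, up to 2 in each direction in every other comparison, the 5 sums around members with the largest called rise and fall at full bloom, members that share a number with a named transcript, and the 3 cluster numbers with most members. Those outside this rule (Cluster-58706.1, the pairs described under 14 cluster numbers other than those with a called sum, Cluster-20003.19, Cluster-1753.0, Cluster-91783, Cluster-101654, Cluster-100695, Cluster-15097.15, Cluster-88339.4 and Cluster-84501) were chosen after their values were seen.

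The test was limma (version 3.58.1, under R 4.3.3) on values of log2(FPKM + 1), by empirical Bayes with a trend on the mean, all libraries in the fit, and Benjamini-Hochberg adjustment over all features of a comparison. Differences on this scale understate changes at low levels. The filter was a group mean of 5 FPKM, which all 200 members passed. The script was tested on simulated data. Deviations of same-numbered replicates from their group means, over all filtered transcripts, had r between -0.22 and 0.05. Such values cannot show whether same-numbered libraries share a plant, so whether the numbers pair the libraries is unknown. Pairing across different numbers, as could occur between the petal regions of MN, was not checked. Settings tried besides were each library left out, the compared libraries alone, the replicate number as a block, an adjusted p under 0.05, no minimum difference, a filter of 10 or none, scaling by median ratios and a pseudocount of 0.01. For the score, group medians in place of means and the lowest TZM library against the highest other library were also tried. Alternatives chosen after seeing the data were a fit on cluster sums alone, the same for cluster numbers of 2 to 4 transcripts, and the fit between TZM stages without replicate 1 of MN at bud stage 1. Tables and plots were made in Python 3.11.15 with pandas 2.3.3, numpy 2.4.6 and matplotlib 3.10.9. No sequence or annotation of these transcripts was used here.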

Additional observations from a re-analysis of the deposited data

Results flagged for a closer look

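The change from bud to full bloom differed between TZM and SZT, by the test of the difference itself, in 3 of the named sums around members. The difference in the change was 3.58 ± 0.57 log2 units for the sum of Cluster-106460 (adjusted p = 6.0e-05), 3.01 ± 0.62 for Cluster-1753 (adjusted p = 0.00074) and -2.97 ± 0.50 for Cluster-64356 (adjusted p = 0.00011), each from limma on log2(FPKM + 1) with 3 libraries per group. For Cluster-106460 the TZM libraries went from 16.4, 39.0 and 27.2 FPKM to 270, 83.0 and 85.7 FPKM, and SZT from 22.9, 20.6 and 25.1 FPKM to 13.7, 8.74 and 4.46 FPKM. For Cluster-1753 TZM held 12.1, 2.87 and 6.18 FPKM and then 7.12, 10.1 and 13.4 FPKM, which overlap, while SZT went from 8.29, 6.47 and 2.62 FPKM to 0, 0.34 and 0.27 FPKM. For Cluster-64356 TZM went from 0, 0.08 and 0.09 FPKM to 0, 0 and 0 FPKM. There SZT went from 0, 0.13 and 0.10 FPKM to 3.22, 19.0 and 4.98 FPKM, so that replicate 2 was far above the others. The member Cluster-64356.1, which rose in TZM, is left out of that sum. Over all 109 sums, 22 differed in this way, 11 in each direction. Of the sums without a member 16.9% did, in the separate fit on cluster sums alone, and of all transcripts 13%. With median-ratio scaling the split was 6 higher and 16 lower, without replicate 3 of SZT at full bloom 11 sums differed, and with only the libraries compared 1 did.

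MN at bud stage 1 enters no tested comparison. Its replicate 1 held 92 transcripts with a mean of at least 5 FPKM in TZM that no other SZT or MN library held. Their median was 3.88 FPKM there and 8.47 FPKM in TZM. In the 20 other SZT and MN libraries, the count of transcripts seen in that library alone had a median of 8.5.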

How the results depend on the processing

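The count of 34 members called between TZM stages was 61 at an adjusted p under 0.05, 3 with a pseudocount of 0.01, 0 with the TZM libraries alone, 35 without replicate 1 of MN at bud stage 1 and 24 to 59 with each TZM library left out, the highest without replicate 1 at full bloom. Counts of 0 within SZT and MN became 2 (SZT stages), 2 (MN stages) and 1 (MN red region against SZT) at an adjusted p under 0.05, and 1 (SZT stages) and 1 (MN red region against SZT) with a pseudocount of 0.01. They stayed 0 with each library left out, except for 0 to 1 between the MN regions. The sums around members called were 50 (buds), 40 (full bloom) and 43 (difference of changes) at an adjusted p under 0.05, against 26, 22 and 22. They were 1, 2, 3 (full bloom against the white region) and 1 with the compared libraries alone. Left-out libraries gave 21 to 25, 16 to 25, 14 to 21 and 11 to 22. Cluster numbers of 2 to 4 transcripts alone gave 9, 8, 8 and 6 of 21. The difference of changes split into 6 higher and 16 lower with median-ratio scaling, against 11 and 11. Named transcripts called were 30 (buds) and 26 (full bloom) at an adjusted p under 0.05, against 19 and 16. With a pseudocount of 0.01 they were 7 in buds and 20 at full bloom. They were 0 and 0 with the compared libraries alone, and 8 to 17 and 7 to 17 with left-out libraries. The list of 200 kept 123 members with a pseudocount of 0.01 in the score and 136 with group medians in place of means. It kept 132 when the lowest TZM library was set against the highest other library, and 162 to 200 with left-out libraries. The causes of these shifts were not tested. The fits on compared libraries alone held fewer libraries than the main fit. Between TZM stages, that fit also left out the SZT and MN libraries, where most members varied little.

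With the replicate number as a block, 34 members were called between TZM stages, 25, 21, 19 and 17 sums around members, and 17 and 14 named transcripts. Whether the numbers pair the libraries is unknown. Of 20 named results, 0 reversed, 18 were no longer called with the compared libraries alone, 10 with a pseudocount of 0.01, 1 with median-ratio scaling, and 3 with at least 1 library left out. The depth behind the values is unknown, and levels near 0 are the least precise.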
